A study of Mus musculus with 2 samples.

Results

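Small nuclear RNAs (snRNAs) are short RNAs without a poly(A) tail that form the catalytic and recognition core of the spliceosome, and each is encoded by many near-identical gene copies. The genes described here are the 23 snRNA copies that were counted in both libraries, out of 1383 genes annotated as snRNA and 55536 genes in all. A copy was taken where every transcript of the gene is annotated as snRNA and the gene table holds at least 20 expected counts in each library, so the members were selected on their measured counts in these same libraries. Their counts are therefore given as a description, with no test. All 1383 snRNA genes have 1 annotated transcript.

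The RNA came from mouse macrophages grown from bone marrow (strain C57BL/6J), as the nucleoplasmic part of their nuclei, after they had received 100 ng/ml lipid A, the membrane anchor of bacterial lipopolysaccharide, for 50 min. The libraries were made after ribosomal RNA depletion and form 1 group with 2 biological replicates, called replicate 2 and replicate 1 below. Per the labels, the RNA input was 1 µg in replicate 2 and 500 ng in replicate 1, the fragment size range was 250 to 400 with no unit given, and both replicates carry the same donor entry, while age and sex were not collected. No untreated library was analysed here, so nothing below describes a response to lipid A. The labels call the fraction nucleus in one field and nucleoplasm in another.

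The gene table of replicate 2 summed to 20515408 expected counts and that of replicate 1 to 10395300. The 7 macrophage markers checked, among them Csf1r, Adgre1 and Lyz2, lay between 28.9 and 1507 TPM (transcripts per 1000000) in replicate 2 and between 23.7 and 1461 TPM in replicate 1. The 8 markers of T cells, B cells, neutrophils and erythroid cells reached at most 1.27 TPM in replicate 2, against 1.67 TPM in replicate 1, and 3 of them were at 0 in both.

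As background, the U1 snRNA base-pairs with the 5′ splice site of an intron through the start of its sequence, and the U2 snRNA base-pairs with the branch point through an internal GUAGUA box. U4, U5 and U6 join them as a tri-snRNP, and U11 and U12 take the places of U1 and U2 in the minor spliceosome. Most of these RNAs are bound by a ring of Sm proteins and are made by RNA polymerase II from dispersed or clustered gene copies. U6 is made by RNA polymerase III and carries LSm proteins. All of them act in the nucleus.

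The 23 members hold 12 distinct sequences. Their letters decide which reads can be told apart, so the copies that the counts turn on are shown here as the sense strand of the annotated transcript (GENCODE M21, mm10 build), written 5′ to 3′ in DNA letters. Rnu1a1 (ENSMUSG00000095969.1, chr11:87422867-87423030, plus strand, 164 bases) is shown with the motif ACTTACCTG at bases 3 to 11 in capitals, the stretch known to pair with the 5′ splice site. Rnu2-10 (ENSMUSG00000065944.1, chr11:101658238-101658428, plus strand, 191 bases) is shown with GTAGTA at bases 33 to 38 in capitals, the branch point box. Below each, the capitals mark the bases that differ from it, and for Gm24497 the base that differs from Gm23444.
Rnu1a1: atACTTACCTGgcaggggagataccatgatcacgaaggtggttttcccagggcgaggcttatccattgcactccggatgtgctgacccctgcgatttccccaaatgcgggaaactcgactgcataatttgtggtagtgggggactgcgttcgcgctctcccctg
Gm22513: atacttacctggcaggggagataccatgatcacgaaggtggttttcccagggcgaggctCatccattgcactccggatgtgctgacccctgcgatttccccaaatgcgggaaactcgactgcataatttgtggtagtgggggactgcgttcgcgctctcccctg
Gm24305: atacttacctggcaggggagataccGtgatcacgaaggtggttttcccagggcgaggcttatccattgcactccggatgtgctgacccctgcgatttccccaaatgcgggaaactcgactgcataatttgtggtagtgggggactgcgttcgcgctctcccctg
Gm22614: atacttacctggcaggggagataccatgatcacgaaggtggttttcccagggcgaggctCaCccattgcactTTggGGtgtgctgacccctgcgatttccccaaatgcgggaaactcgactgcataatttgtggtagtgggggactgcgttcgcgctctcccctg
Rnu2-10: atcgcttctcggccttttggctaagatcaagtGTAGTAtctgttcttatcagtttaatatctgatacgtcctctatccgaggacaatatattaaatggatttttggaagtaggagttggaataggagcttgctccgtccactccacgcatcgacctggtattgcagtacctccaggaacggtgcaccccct
Gm23444: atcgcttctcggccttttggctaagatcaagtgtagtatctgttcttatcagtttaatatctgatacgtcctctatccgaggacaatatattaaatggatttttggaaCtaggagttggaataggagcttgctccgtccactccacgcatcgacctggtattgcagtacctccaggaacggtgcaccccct
Gm24497: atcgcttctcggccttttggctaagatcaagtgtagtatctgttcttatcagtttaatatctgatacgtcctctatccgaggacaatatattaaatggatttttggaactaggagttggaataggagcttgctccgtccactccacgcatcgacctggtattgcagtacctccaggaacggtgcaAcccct

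A further pair of members is 141 bases long and 52.4% identical to Rnu1a1, the nearest of the genes with an Rnu symbol, so no family name is given to them here. None of the 11 genes with an Rnu symbol is named for U4, so these identities cannot place the pair in that family or outside it. Both lie on the plus strand within 0.936 kb of chromosome 5, and the capitals mark the 2 bases by which they differ.
Gm24265: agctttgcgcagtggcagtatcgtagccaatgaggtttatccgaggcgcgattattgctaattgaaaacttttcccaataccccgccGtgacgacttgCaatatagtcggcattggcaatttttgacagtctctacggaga
Gm24407: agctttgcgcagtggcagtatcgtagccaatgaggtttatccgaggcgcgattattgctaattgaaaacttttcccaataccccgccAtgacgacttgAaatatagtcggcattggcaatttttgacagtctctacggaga

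Positions in the substitutions below are counted from 1 at the 5′ end. The base before the position is that of the copy compared against, such as Rnu1a1 or Rnu2-10. The base after the position is that of the copy being described. Gm22513 differs from Rnu1a1 by T60C and Gm24305 by A26G. Gm22614, which has the same sequence as Gm25890, is 165 bases long and lies 6 edits from Rnu1a1. It lies closer to the U1b genes, the U1 variants known from mouse embryos, since it differs from Rnu1b1 by T33C alone. Among the copies of 191 bases, Gm23444 differs from Rnu2-10 by G109C, and Gm24497 carries G109C and C186A. Gm25939 carries T69C, C78T and G109C, Gm25360 carries 4 substitutions and Gm22973 carries 9. Gm24407 differs from Gm24265 by G88A and C99A.

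Motif searches on the sense strand of the transcripts followed the same division. ACTTACCTG was found in 11 of 11 members of 164 or 165 bases and in no member of another length, against 3.98% of all annotated snRNA genes. Most annotated genes are shorter than any member, so shares within the members' length ranges, the classes used for counting below, are the closer comparison. For ACTTACCTG the share was 28.2% of the 156 annotated genes in the length range of Rnu1a1. GTAGTA was found in 10 of 10 members of 191 bases and in no other member, against 3.69% of all annotated snRNA genes. Its share was 42.9% of the 42 annotated genes in the length range of Rnu2-10. ATTTTTG, which contains the centre of a common Sm protein site, was found in 12 of 23 members, the ones of 141 and 191 bases, against 3.33%. In the length range of Rnu2-10 its share of annotated genes was 47.6%, and in that of Gm24265 it was 9.78%. ACAGAGA, the box by which U6 pairs with the 5′ splice site, was found in 0 of 23 members, against 42.2% of annotated snRNA genes. Its share was 0% in the length range of Rnu1a1, 2.38% in that of Rnu2-10 and 2.17% in that of Gm24265. GCCTTTTAC, from the loop of U5 that holds the exons, was also found in 0 of 23, against 0.651%. In each of the same length ranges its share was 0%. These matches describe letters in the annotated transcripts only.

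No member was shorter than 141 bases or longer than 191. For counting, the annotated copies were put into 6 length classes, called here by a gene that each holds. Of the 835 genes in the class of the U6 gene Rnu6 (107 bases), 0 were members, and all 835 had 0 expected counts in both libraries. The 193 shorter genes were likewise all at 0, and the 65 genes in the class of the U5 gene Rnu5g (116 bases) gave no member. Members were 2 of 92 genes in the class of Gm24265, which also holds Rnu12, 11 of 156 genes in the class of Rnu1a1 and 10 of 42 genes in the class of Rnu2-10.

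The gene tables list an effective length for each gene, the number of start positions that a fragment of the library can take on the transcript. Effective length was 0 for every snRNA gene of up to 119 bases in replicate 2 and of up to 130 bases in replicate 1, which is 1074 of the 1383 genes in replicate 2 and 1111 in replicate 1. An snRNA gene with an effective length of 0 had 0 expected counts, so the absence of U6-length and U5-length copies from the members cannot be told apart from their length. At the members' own lengths the effective length was 5.17 bases in replicate 2 and 1.99 in replicate 1 at 141 bases. It was 13.9 in replicate 2 and 6.04 in replicate 1 at 164 bases, and 28.9 in replicate 2 and 14.4 in replicate 1 at 191 bases. The same members had longer effective lengths in the other quantification, a transcript table in the layout of kallisto, for example 50.8 bases in replicate 2 and 38.4 in replicate 1 at 191 bases. The plot of annotated genes by length shows how many copies had an effective length of 0.

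**Figure D1:**
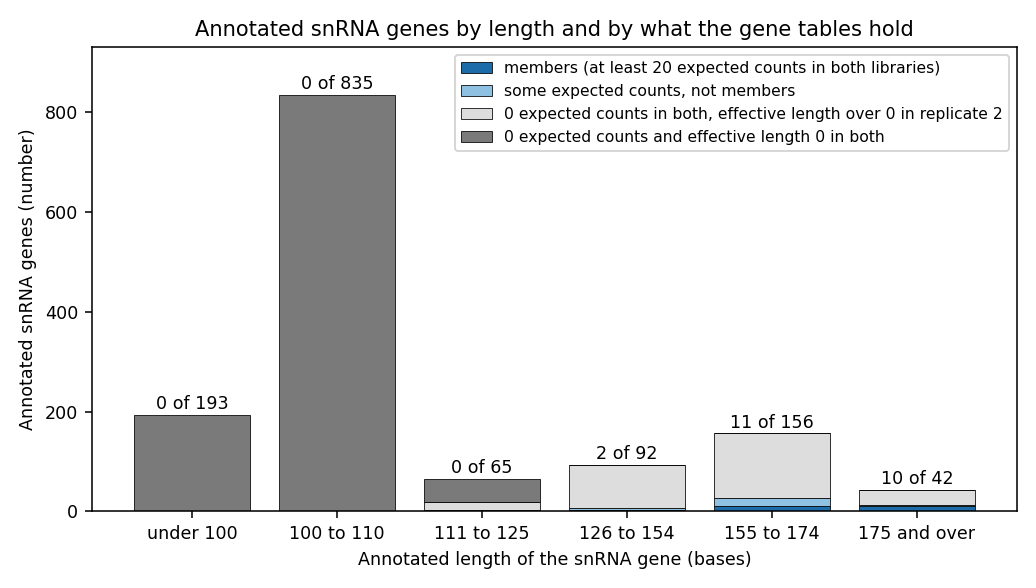
Number of annotated snRNA genes (vertical axis) in 6 classes of annotated length in bases (horizontal axis), split by what the gene tables hold; the figures over the bars give members of annotated genes. All 835 genes of the class of Rnu6 had an effective length of 0, and the members lie in the 3 longest classes.

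Summed, the 23 members had 87057 expected counts in replicate 2, against 24483 in replicate 1. That was 0.425% of the counts over gene rows in replicate 2 (Wilson 95% interval 0.422% to 0.428%) and 0.237% in replicate 1 (0.234% to 0.240%), a mean of 0.331% ± 0.133 (SD, n = 2). Of all snRNA counts, the members held 98.9% in replicate 2 and 99.6% in replicate 1. The intervals hold counting error alone, because reads that carry no molecular identifier need not stand for separate molecules. On the TPM scale of the gene tables, counts are divided by effective length. There the same 23 genes held 13.0% of the total in replicate 2 and 21.9% in replicate 1, a mean of 17.4% ± 6.27 (SD, n = 2). In TPM of the other quantification, with its longer effective lengths, they held 1.32% in replicate 2 and 3.90% in replicate 1. That was a mean of 2.61% ± 1.82 (SD, n = 2), so the share in TPM depends strongly on the effective lengths used.

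The copies split these counts unevenly between the U1 and U2 lengths. Copies of 191 bases, led by Rnu2-10 and Gm23444, held 63.0% of the members' expected counts in replicate 2 and 69.3% in replicate 1. Copies of 164 and 165 bases held 35.1% in replicate 2 and 30.2% in replicate 1, and the 141-base pair held 1.94% in replicate 2 and 0.511% in replicate 1. Per length, as TPM of the gene tables, the order changed. The copies of 164 and 165 bases held 49.6% of the members' total in both replicates. Those of 191 bases held 43.0% in replicate 2 and 47.9% in replicate 1. The 141-base pair held 7.41% in replicate 2 and 2.55% in replicate 1. The 2 long classes therefore lay close together in TPM of the gene tables, in an order that differed from that in counts. In the other quantification, copies of 191 bases held 65.6% of the members' estimated counts in replicate 2 and 69.2% in replicate 1. There the effective lengths at 164 and 191 bases were 35.2 and 50.8 in replicate 2, and 29.0 and 38.4 in replicate 1. The change of order is thus given for the effective lengths of the gene tables only.

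Exactly equal values grouped the copies by sequence. In 4 sets, holding 15 of the 23 members, every copy had the same expected count and the same TPM in both libraries, and the copies of each set also shared 1 estimated count in the other quantification. Each set was 1 sequence and each repeated sequence was 1 set. The sets were Rnu1a1 with 6 further copies, Rnu2-10 with Gm23849, Gm23971 and Gm24950, Gm22614 with Gm25890, and Gm23444 with Gm23472. The other 8 members had values and sequences of their own. A value of 1 copy in a set is thus an equal part of the set's total, and no statement on which copy was transcribed can be drawn from it.

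The gene tables also give a posterior standard deviation for each count, the spread of the count over possible assignments of shared reads. As a percent of the expected count it lay between 20.7% and 85.5% for the 15 copies in sets, over both libraries. For 7 of the 8 members with a sequence of their own it lay between 0% and 4.22%, and among these Gm22513, a single base from Rnu1a1, was at 0.0147% in replicate 2, against 0.0465% in replicate 1. The eighth was Gm24497, at 172% in replicate 2 and 36.6% in replicate 1. The plot of these values shows the division.

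**Figure D2:**
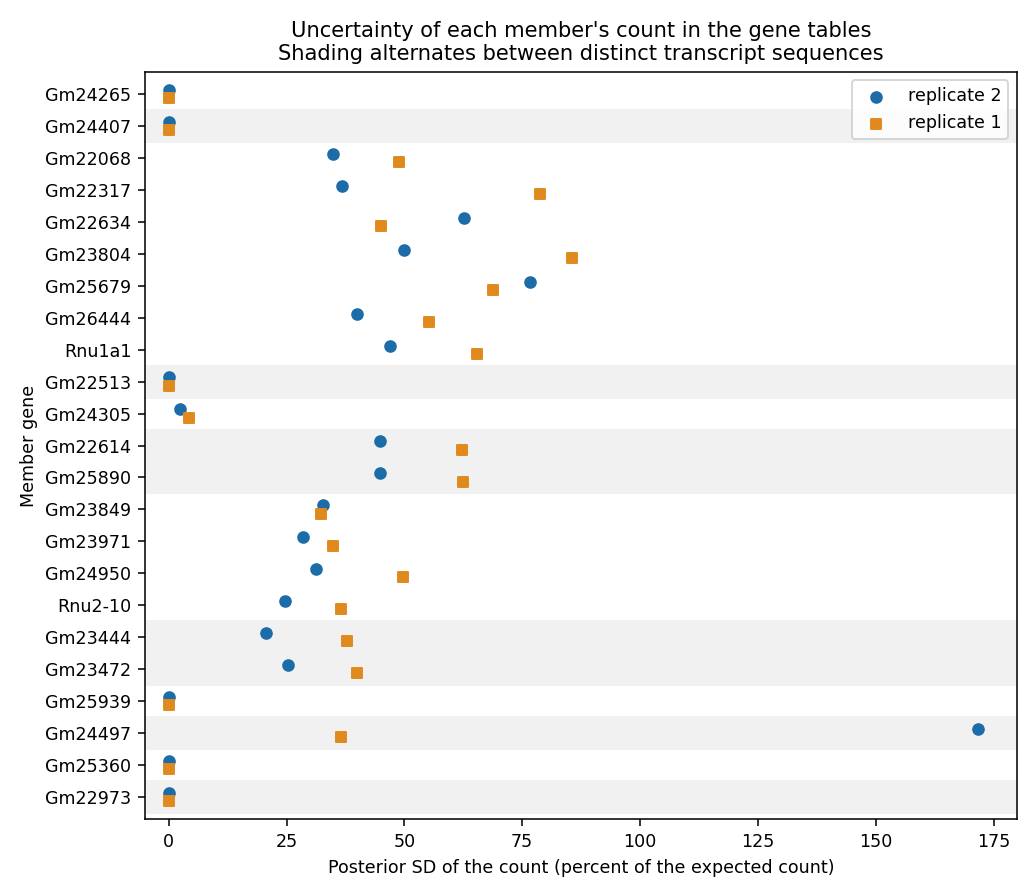
Posterior standard deviation of the count as a percent of the expected count (horizontal axis) for each of the 23 members (vertical axis), in replicate 2 (circles) and replicate 1 (squares). Copies that share a sequence lie between 20.7% and 85.5%, Gm24497 reaches 172% in replicate 2, and the other members lie at or below 4.22%.

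Among the copies of U1 length, the sequence of Rnu1a1, carried by 7 genes, was the most abundant. Each of its copies had 2566 expected counts in replicate 2, against 595 in replicate 1, and together they had 17965 in replicate 2 and 4165 in replicate 1. That was 877 counts per 1000000 counts of gene rows (CPM) in replicate 2 and 403 CPM in replicate 1, a mean of 640 ± 335 CPM (SD, n = 2). Gm22513, with T60C, had 8237 expected counts (402 CPM) in replicate 2, against 1935 (187 CPM) in replicate 1. It was thus above the equal part assigned to each copy of the Rnu1a1 set in both libraries, and below the set's total. Because those copies share their reads, whether it was above every single copy cannot be told.

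The other U1-length sequences were lower. Gm22614 and Gm25890, the pair close to the U1b genes, had 1961 expected counts each in replicate 2 and 608 each in replicate 1. Gm24305, with A26G, had 434 in replicate 2 and 77.4 in replicate 1. Of the counts of the U1-length members, the Rnu1a1 sequence held 58.8% in replicate 2 and 56.3% in replicate 1, and Gm22513 held 27.0% in replicate 2 and 26.2% in replicate 1. The Gm22614 pair held 12.8% in replicate 2 and 16.4% in replicate 1, and Gm24305 held 1.42% in replicate 2 and 1.05% in replicate 1. The order of the 4 sequences was the same in both libraries. In the estimated counts of the other quantification the order was also the same, with the Rnu1a1 sequence at 58.4% in replicate 2 and 56.1% in replicate 1.

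Among the copies of U2 length, the sequence of Rnu2-10, carried by 4 genes, was the most abundant. Each copy had 7011 expected counts in replicate 2, against 1679 in replicate 1, and together they had 28045 (1368 CPM) in replicate 2 and 6715 (649 CPM) in replicate 1. The sequence with G109C of Gm23444 and Gm23472 followed with 8298 expected counts per copy in replicate 2, against 2261 in replicate 1. Gm25939 was the most abundant U2-length gene with a sequence of its own, at 7290 expected counts in replicate 2 and 3051 in replicate 1. Gm25360 had 1769 in replicate 2 and 389 in replicate 1, and Gm22973, the copy with 9 substitutions, had 231 in replicate 2 and 29 in replicate 1. Of the U2-length counts the Rnu2-10 sequence held 51.2% in replicate 2 and 39.6% in replicate 1, so its share varied more between the libraries than that of the Rnu1a1 sequence within U1. In estimated counts it also led, with 51.0% in replicate 2 and 42.9% in replicate 1, but the order below it changed: the Gm23444 pair held 24.1% in replicate 2 and 15.7% in replicate 1, and Gm24497 held 8.0% in replicate 2 and 22.0% in replicate 1.

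Gm24497, which differs from Gm23444 by C186A near the 3′ end, was the member that was lower in replicate 2. It had 879 expected counts in replicate 2 and 2261 in replicate 1. In replicate 1 its expected count and TPM were identical to those of Gm23444 and Gm23472, so that 16 members stood in equal-value sets there, and in replicate 2 it stood apart from them. In the other quantification it had 5237 estimated counts in replicate 2 and 6378 in replicate 1, and Gm23444 had 7898 in replicate 2 and 2275 in replicate 1. The 3 genes summed gave 17475 expected counts in replicate 2, against 6782 in replicate 1, a CPM ratio of 1.30. In estimated counts they gave 21033 in replicate 2 and 10927 in replicate 1, a ratio of 1.31. The ratio of the sums was thus alike in both quantifications, while the split among the 3 genes was not.

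Gm24265 and Gm24407, the 141-base pair, rested on fewer counts than the U1 and U2 sets. Gm24265 had 1184 expected counts (57.8 CPM) in replicate 2, against 87 (8.41 CPM) in replicate 1. Gm24407 had 506 (24.7 CPM) in replicate 2, against 38 (3.67 CPM) in replicate 1. Gm24265 held 70.1% of the pair's counts in replicate 2 and 69.6% in replicate 1. In TPM, which rests on an effective length of 5.17 bases in replicate 2 and 1.99 bases in replicate 1, Gm24265 was at 6751 in replicate 2 and 3883 in replicate 1, and Gm24407 was at 2885 in replicate 2 and 1696 in replicate 1. Each copy of Rnu1a1, by comparison, was at 5435 TPM in replicate 2, against 8766 TPM in replicate 1. The levels of all members are plotted by library.

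**Figure D3:**
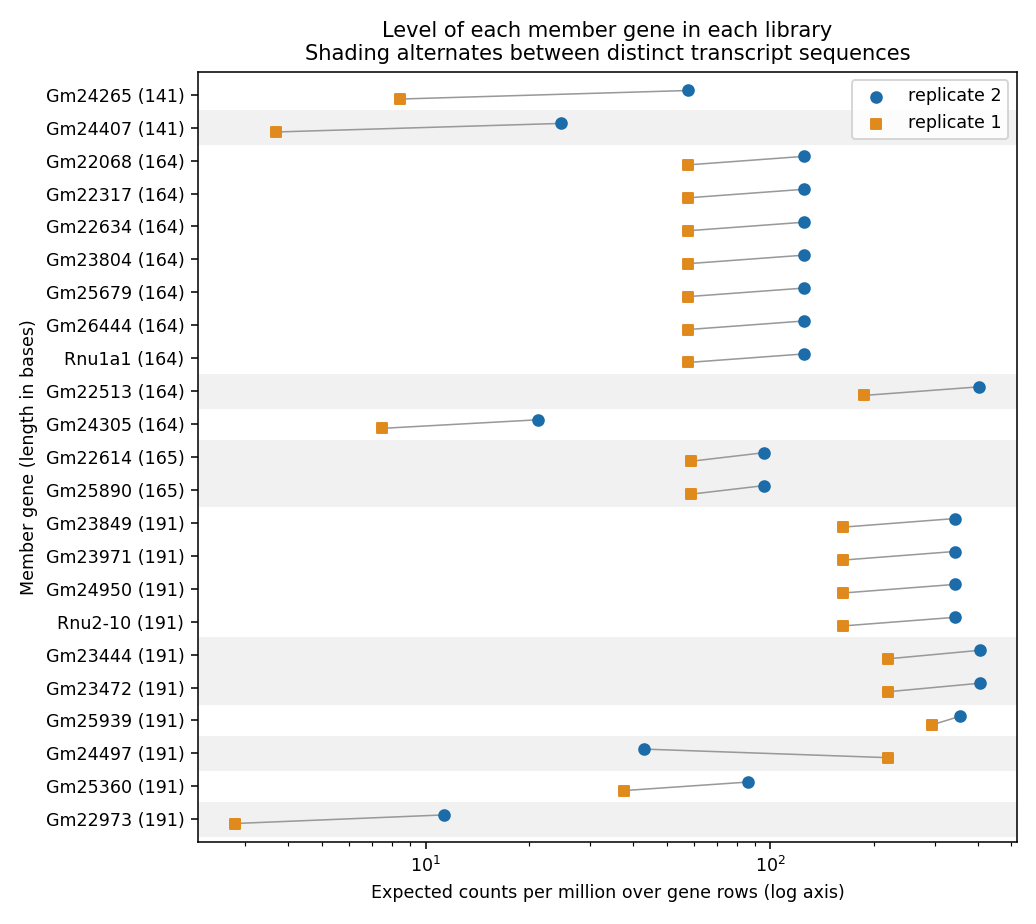
Expected counts per 1000000 over gene rows (horizontal axis, log scale) of each member (vertical axis, length in bases in brackets), in replicate 2 (circles) and replicate 1 (squares), with shading that alternates between distinct sequences. Circles lie to the right of squares for 22 of the 23 members, Gm24497 being the exception, and copies of 1 sequence lie at the same values.

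In CPM the members were higher in replicate 2 than in replicate 1. The ratio of replicate 2 over replicate 1 had a median of 2.18 over the 23 members (log2 1.12), with 0.5 counts added before scaling, against a median log2 ratio of -0.11 over the 11058 genes that reached 20 counts in each library. The ratio was above 2 for 17 of the 23 members, where 2.1% of all genes tested passed the same fold, and below its inverse for 1 member, Gm24497, where 3.24% of all genes did. Copies of 1 sequence share their reads, and counted by distinct sequence 8 of 12 were above 2 and 1 was below the inverse. With TMM library sizes, under which the median of all genes was 0.00, the members' median was 1.24. With 1 group there is no test of this difference, and it compares the 2 libraries only. In bulk RNA, fewer cells that hold an RNA and less of it per cell cannot be told apart.

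The ratios spread widely, also among copies of 1 length. The largest were those of Gm24265, 6.83 (95% counting interval 5.52 to 8.64), and Gm24407, 6.64 (4.83 to 9.61). Gm22973 followed at 3.96 (2.73 to 6.14), then Gm24305 at 2.81 (2.23 to 3.67) and Gm25360 at 2.29 (2.06 to 2.57). The copies of the Rnu1a1 set were at 2.18, Gm22513 at 2.15 and the copies of the Rnu2-10 set at 2.11. The smallest above 1 were those of Gm23444, 1.85, the Gm22614 pair, 1.63, and Gm25939, 1.21 (1.16 to 1.26), and Gm24497 was at 0.196 (0.181 to 0.212). The intervals do not cover the assignment of shared reads between copies.

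On the TPM scale the members' median was lower in replicate 2, and so was that of all genes tested. The median log2 TPM ratio of the members was -0.69, against -0.71 over all genes tested, and 3 of 23 members had a TPM ratio above 1, where 8.72% of all genes tested did. The 3 were Gm24265, Gm24407 and Gm22973. Effective length itself differed between the libraries in the same direction as the counts, with a ratio of 2.60 at 141 bases, 2.31 at 164 bases, 2.29 at 165 bases and 2.00 at 191 bases, against a median of 1.01 over all genes tested. RNA input and effective length both differ between the libraries, and their part in the CPM ratio was not tested. In estimated counts of the other quantification the members' median ratio was 1.82 (log2 0.87), against a log2 median of -0.18 over all genes, and 22 of 23 members had a ratio above 1, where 33.4% of all genes tested did. The 4 other genes of 141 to 191 bases that reached 20 counts in each library were all snoRNA genes, among them Snord15a, and their median log2 CPM ratio was 2.42. The plot of ratios sets the 3 scales side by side.

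**Figure D4:**
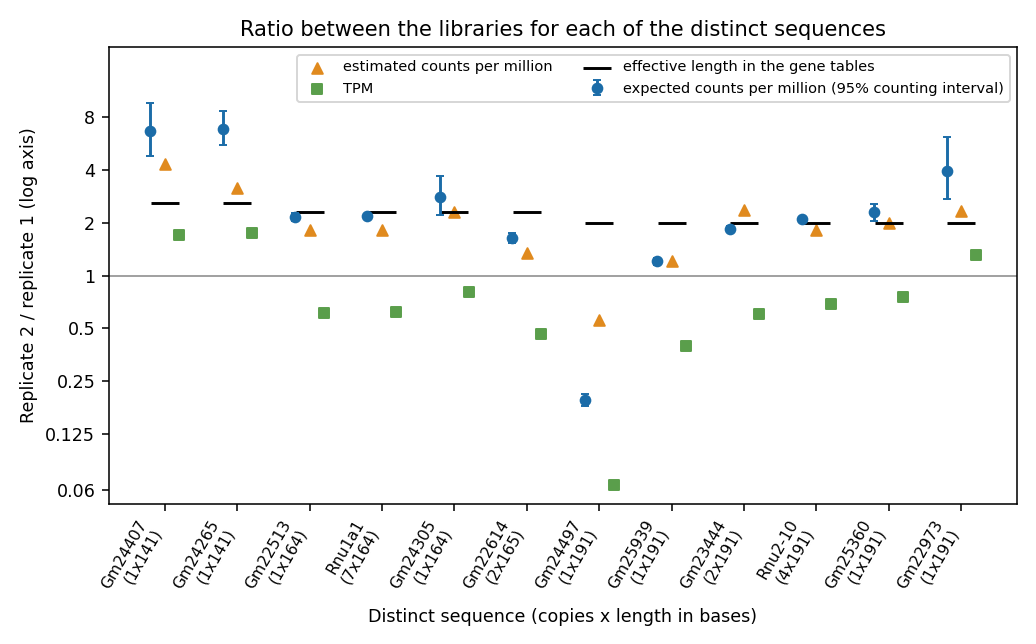
Ratio of replicate 2 over replicate 1 (vertical axis, log scale) for the 12 distinct sequences (horizontal axis, with copies and length), in expected counts per 1000000 with 95% counting intervals (circles), estimated counts per 1000000 (triangles) and TPM (squares), with the ratio of effective lengths as horizontal bars. Circles lie above 1 for 11 of 12 sequences, whereas squares lie above 1 for 3.

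Most members were lower in the estimated than in the expected counts, each scaled to its own total. Estimated over expected CPM had a median log2 of -0.29 over the members, against -0.06 over all genes tested, with -0.43 in replicate 2 and -0.15 in replicate 1, and 19 of 23 members were below 0, where 58.3% of all genes tested were. Gm24497 was the highest at 1.32, followed by Gm24265 at 0.68, Gm24407 at 0.35 and Gm22973 at 0.17, the 4 members above 0. Copies of 1 sequence share these values, so the 19 members below 0 are not 19 separate observations. Counted by distinct sequence, 4 of 12 were above 0. Gm23444 and Gm23472 were the lowest at -0.74, and the copies of the Rnu1a1 set were at -0.32. Summed over all members, the estimated counts were 99802 in replicate 2 and 41937 in replicate 1.

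The members were among the copies closest in sequence to the leading copy of their length. Each leading copy is itself a member, and copies identical to it are assigned equal parts of the same reads. Those copies therefore pass the threshold together with it, and the shares below are a description only. All 11 members of U1 length were at least 96.4% identical to Rnu1a1, whereas the other annotated genes of that length class had a median identity of 73.8%. Of the 23 genes at 95% identity or more, 11 were members and 4 had 0 counts in both libraries, and of the 133 genes below 95%, 0 were members and all but 8 had 0 counts in both. In the class of Rnu2-10, 10 of the 13 genes at 95% or more identity to Rnu2-10 were members, and all 29 genes below it had 0 counts in both libraries. Of the 92 genes in the class of Gm24265, the 2 members, Gm24265 itself and Gm24407, were the only genes at 95% or more identity to Gm24265. Identity here is the percent of the longer sequence's length left after taking off the edits between the 2 sequences. Edits are substituted, inserted or deleted bases.

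**Figure D5:**
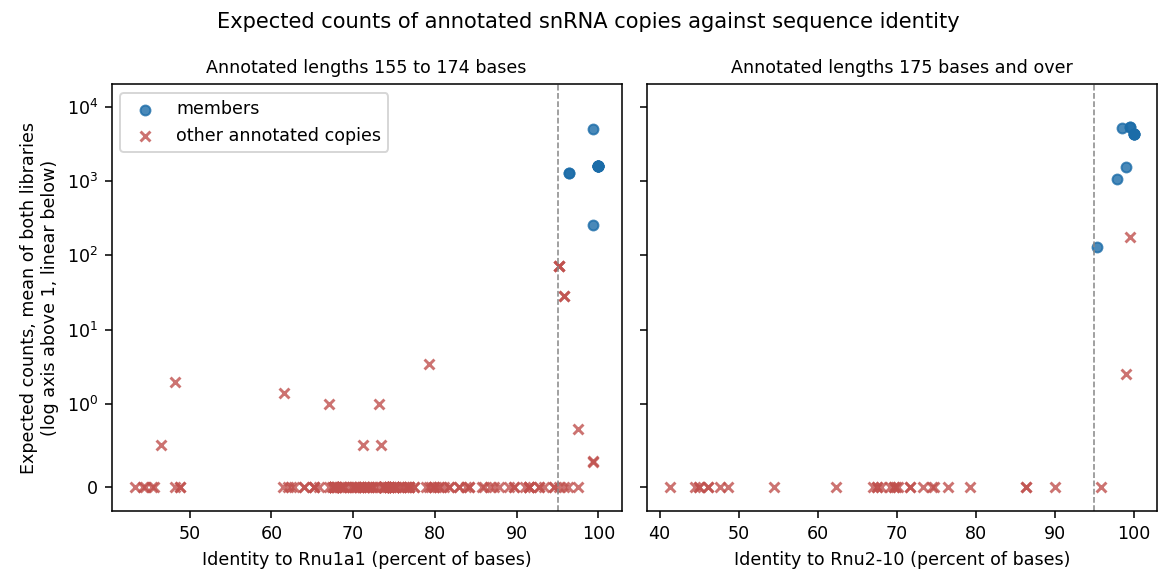
Expected counts, mean of both libraries (vertical axis, log scale above 1 and linear below), of each annotated snRNA gene in the length class of Rnu1a1 against its identity to Rnu1a1 (left) and in that of Rnu2-10 against its identity to Rnu2-10 (right), members as circles and other copies as crosses. Every member plotted lies to the right of the dashed line at 95% identity, and most copies to its left lie at 0.

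High identity alone did not make a member. Gm26316, 99.5% identical to Rnu2-10, had 344 expected counts in replicate 2 and 14.3 in replicate 1. Gm25813, 99.0% identical to Rnu2-10, had 4.01 expected counts in replicate 2 and 1.00 in replicate 1. Gm23238, 97.6% identical to Rnu1a1, was at 0 expected counts in replicate 2 and 1.40 in replicate 1, while the other quantification gave it 491 estimated counts in replicate 2 and 3.16 in replicate 1.

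The members lie at 8 places in the genome. On chromosome 12, 7 members of 164 bases, 4 on the plus and 3 on the minus strand, lie within chr12:54696782-54738622, and they hold 5 of the 7 copies of the Rnu1a1 sequence with Gm22513 and Gm24305. Rnu1a1 itself and Gm22068 lie 4.01 kb end to end on chromosome 11. The 4 copies of the Rnu2-10 sequence lie within chr11:101627366-101658428. The 4 members of 191 bases within chr1:72226240-72255198, Gm25360, Gm23472, Gm24497 and Gm25939, are 4 different sequences on 1 strand. Gm23472 shares its sequence with Gm23444, which lies alone at chr11:83271498-83271688, so identical copies can lie on different chromosomes. The pair of 165 bases lies on chromosome 3, the 141-base pair on chromosome 5 and Gm22973 alone on chromosome 12. The spans end at the outermost members. Within 100 kb of them lie 5 annotated snRNA genes that are not members, of which 2 had 0 counts in both libraries, and Gm26316, Rnu1b6 and Gm26232 fell short of the threshold.

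Of the 23 members, 17 overlap no other annotated gene and 6 (26.1%) lie in an intron of a gene on the same strand, against 312 of all 1383 annotated snRNA genes (22.6%) in a same-strand gene, so the members' share was near that of all copies. The 6 were Rnu1a1 and Gm22068 in Tex14, Gm23849 in Rdm1, and Gm23472, Gm24497 and Gm25939 in the lincRNA gene D230017M19Rik. These hosts were near 0, with a median over the 6 of 0.04 TPM in replicate 2, against 0.05 TPM in replicate 1. In the other quantification, 30 snRNA genes with an effective length of 0 had at least 20 estimated counts in both libraries, and 11 of them (36.7%) lie in an intron of a same-strand gene, with a host median of 33.0 TPM in replicate 2, against 55.3 TPM in replicate 1. Among these, Gm25549 in Mapkapk2, a kinase gene, had 297 estimated counts in replicate 2 and 253 in replicate 1, and Gm24996 in Nfe2l2, which encodes the stress-response factor NRF2, had 221 in replicate 2 and 338 in replicate 1. Of the other 19 genes, 14 overlap a gene on the opposite strand only and 5 overlap none. The strand setting of the counting is not given in the sources used here, so reads of a host and of an snRNA in it cannot be told apart.

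Named snRNA genes outside the members were low or at 0 in the gene tables. Rnu12, of the minor spliceosome, had 140 expected counts in replicate 2, against 3 in replicate 1, and its estimated counts were 1064 in replicate 2 and 245 in replicate 1. Rnu11, its partner, was at 0 in every table. Rnu5g, a U5 gene of 116 bases with an effective length of 0, was at 0 expected counts in both libraries and at 120 estimated counts in replicate 2 and 28.3 in replicate 1. Rnu6 and Rnu7, which takes part in the processing of histone mRNA ends, were at 0 in both quantifications.

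Around the threshold of 20, the members just inside were Gm22973 with 29 expected counts in replicate 1, Gm24407 with 38 and Gm24305 with 77.4, whose counts in replicate 2 are given above. Just outside lay Rnu1b6, Gm24830 and Gm26232, 3 copies of 1 U1b sequence at 125.1 in replicate 2 and 17.4 in replicate 1 each, then Gm26316 at 14.3 in replicate 1, and Rnu1b1 and Rnu1b2 at 42.3 in replicate 2 and 14.1 in replicate 1 each. Summed over the copies of a sequence, the Rnu1b6 set had 375 in replicate 2 and 52.3 in replicate 1, and the Rnu1b1 pair had 84.6 in replicate 2 and 28.2 in replicate 1. A threshold on such sums would take 28 genes.

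Genes for the proteins of snRNA particles had CPM ratios near that of all genes. Of a list of 69 genes for the synthesis, assembly and function of snRNPs, 55 reached 20 counts in each library, 1 was more than 2-fold higher in replicate 2 and 0 were more than 2-fold lower, against 2.1% and 3.24% of all genes tested, and their median log2 CPM ratio was -0.14. The gene past the fold was Snrpb, of the Sm ring, which had 210 expected counts in replicate 2, against 49 in replicate 1, a ratio of 2.15. Among the particle proteins, the U2 protein gene Sf3b1 had a level of 120 TPM in replicate 2 and of 287 TPM in replicate 1, while the U1 protein gene Snrnp70 had one of 74.5 TPM in replicate 2 and of 109 TPM in replicate 1. Prpf8, at the centre of the spliceosome, had 9.20 TPM in replicate 2, against 15.3 TPM in replicate 1. The median log2 TPM ratio of all genes tested was -0.71. In CPM the ratios were 0.648 for Sf3b1, 1.12 for Snrnp70 and 0.91 for Prpf8. Of the Sm proteins, 5 of 8 genes had enough counts, with a median log2 ratio of 0.07, and of the LSm proteins 4 of 7, with a median of -0.25. The 5 genes of Integrator, the complex that cleaves snRNA 3′ ends, had a median log2 ratio of 0.09, and genes of snRNA transcription -0.31 over 10.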

How the data were processed

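Per the file headers, the authors deposited for each library a gene table with expected counts (expected_count, not whole numbers), TPM, effective lengths and posterior standard deviations of the counts, in the layout of RSEM, and a transcript table with estimated counts and TPM in the layout of kallisto. Per the deposited readme files both rest on the mm10 build and GENCODE release M21, the first through transcriptome alignments. The sources used here give no program versions, strand setting or filters.

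CPM were computed over the 55536 gene rows. In replicate 2, 0.0968% of expected counts lay in rows that name no gene, against 0.504% in replicate 1. Sequences, positions and overlaps came from the GENCODE M21 transcripts and annotation with Python 3.11.15, and identities from edlib 1.3.9.post1. Ratios are replicate 2 over replicate 1 with 0.5 counts added, and their 95% intervals are exact binomial intervals of the 2 counts. A count of 0 allows 0.146 CPM in replicate 2 and 0.29 CPM in replicate 1, taking 3 counts as the limit. TMM library sizes came from edgeR 4.0.16 and size factors from DESeq2 1.42.0, after rounding expected counts. The ratio calls were run on simulated counts that held counting error alone. Those counts had no shared reads and no difference in effective length, so they do not test the calls on copies such as these. No test between groups exists in 1 group, and a promoter search was not run.

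The members, the gene lists and the rule for named genes were chosen with earlier results of these data known. The rule took the highest members, every Rnu symbol, every set of equal values, the largest and smallest ratios, and the genes next to the threshold. Gm25813, Gm23238, Gm25549 and Gm24996 were named after their values were seen.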

Additional observations from a re-analysis of the deposited data

Results flagged for a closer look

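The snRNA genes with an effective length of 0 in both gene tables have no expected counts, yet they carry signal in the other quantification, which the comparisons of members do not use. Summed over these 1074 genes, the estimated counts were 3943 in replicate 2 and 3576 in replicate 1. That was 3.68% of all estimated snRNA counts in replicate 2 and 7.62% in replicate 1. An estimated count above 0 in either library was found for 288 of the 1074 genes. The CPM ratio of their sums, replicate 2 over replicate 1, was 0.749. The members' 1.82 on the same scale is a median of single ratios and so a different measure. Summed, the members held 0.345% of estimated counts in replicate 2 and 0.213% in replicate 1. No control library was available to set a background level, and the part of host gene RNA in these counts was not tested.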

How the results depend on the processing

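Of 66 alternative values for 11 results, 47 stayed within the tolerance (1.5 times for a count, the spread between the libraries or the counting interval for a value), 18 moved past it and 1 reversed; those that take 1 value per distinct sequence or sum identical sequences were chosen after seeing the data. With TPM the median log2 ratio of the members was -0.69, the one reversal, against -0.71 over all genes tested. In TPM the members' share was 17.4%, 0 members were over 2-fold higher in replicate 2 and 4 lower, 44 and 3061 of all genes were, estimated over expected was -3.25 in log2, and copies in the length class of Rnu1a1 held 49.6% of the members' total. In estimated counts 67 genes passed the threshold, the median log2 ratio was 0.87, and 6 members were over 2-fold higher and 0 lower. The median log2 ratio was 1.24 with TMM and 1.23 with DESeq2 size factors, under which 218 and 230 of all genes were over 2-fold lower. With no filter on low counts 2971 of all genes were over 2-fold higher and 2420 lower. With 1 value per distinct sequence 8 of 12 were over 2-fold higher. The cause was not tested, except that TPM divides by effective length and that fewer values are counted per sequence.

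Leaving out a library gave 23 to 30 members, a share of 0.237% to 0.425%, 4 to 4 sets of equal values, -0.43 to -0.15 for estimated over expected, 0% to 0% of member counts for copies in the length class of Rnu6 and 30.2% to 35.1% for those in that of Rnu1a1. No paired analysis was possible because both libraries belong to 1 group. Depth limits the members of low counts, such as Gm22973 with 29 counts in replicate 1.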
